A study of Mus musculus with 6 samples.

Results

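The transcript levels of 10 genes of the p53 damage response were followed in libraries titled T cells. These mouse T cells had been co-cultured with cisplatin-pretreated or PBS-pretreated ovarian cancer cells. Markers of B cells, myeloid cells and the cancer cells were measured in the same libraries, so the levels are those of a mixture. The genes were taken by symbol from the deposited table of 54532 mouse genes: Trp53, Cdkn1a, Mdm2, Ccng1, Bbc3, Pmaip1, Phlda3, Eda2r, Trp53inp1 and Gdf15. All 10 were found once each. The T cells were isolated from C57BL/6 spleens (mice of 6 to 8 weeks), kept in 10 ng/mL IL-2 and pre-activated on anti-CD3/CD28 beads for 72 h. They were then co-cultured with ID8, a mouse ovarian cancer cell line. In the cisplatin group (3 libraries) the ID8 cells had been pretreated with 40 µM cisplatin, and in the control group (3 libraries, titled WT) with PBS. By the labels cisplatin was given to the ID8 cells only. The length of the co-culture and how T cells were separated after it are not given in the sources used here. The study speaks of biological replicates without saying whether mice or cultures were separate, so the p-values measure the spread between these libraries, which may be technical.

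The protein p53 is a transcription factor that is held at a low level by the ubiquitin ligase Mdm2 and is stabilised when DNA is damaged, as cisplatin does by crosslinking it. It then switches on genes that stop the cell cycle, kill the cell or feed back on p53 itself, and its activity is controlled mainly on the protein, so a transcript level of Trp53 is not a measure of it. Activated lymphocytes are known for a strong p53 response to DNA damage, and the parental ID8 line is known to carry no mutation in Trp53.

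The recognition sequence of p53 consists of a pair of decamers, each a near-palindrome around a core of CATG or similar letters, with a short spacer or none between them. The decamer consensus of p53 was searched in RefSeq promoter windows of the GRCm38.p6 build, which run from 250 bases before to 50 bases after each annotated start. The consensus is its own reverse complement, so each match covers both strands. Of the 10 genes, 8 were matched to windows by symbol. An exact decamer was found for 4 of these 8 genes and for 9.55% of all 27025 genes with a window. These matches are shown because they are exact decamers in the windows of the genes measured here. Pairs of decamers with more than 1 departure from the consensus were not searched. Capitals mark the decamers, and each sequence is printed 5′ to 3′ on the strand of its gene.
Cdkn1a (chr17:29090849-29090968, + strand): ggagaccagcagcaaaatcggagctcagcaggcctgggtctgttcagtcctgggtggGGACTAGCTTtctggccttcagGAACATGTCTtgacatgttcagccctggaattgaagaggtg
Ccng1 (chr11:40755452-40755481, - strand): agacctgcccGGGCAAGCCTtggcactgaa
Mdm2 (chr10:117710925-117710954, - strand): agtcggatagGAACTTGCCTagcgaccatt
Trp53 (chr11:69580274-69580303, + strand): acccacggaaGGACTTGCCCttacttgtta
The Cdkn1a window held exact decamers that begin 73 and 51 bases before the annotated start and lie 12 bases apart. Exact pairs with a spacer of at most 13 bases were found in 0.0731% of all 32851 windows. The 10 bases directly after the second Cdkn1a decamer depart from the consensus at 1 position, and this paired site begins 2841 bases before the other annotated start of Cdkn1a. In Ccng1 the 10 bases directly before the decamer likewise depart at 1 position. Paired sites with at most 1 departure were found in 1.09% of all windows and in 2 of the 12 windows of the p53 damage response genes. The matches are descriptions of letters, and no binding was measured.

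The libraries held 30606569 to 32169496 reads on genes, rebuilt from the deposited FPKM (fragments per kilobase of gene, divided by a total for each library). That total differed from the reads on genes, and to opposite sides in the groups. Its ratio to them was 1.049, 1.030 and 1.035 for cisplatin, against 0.981, 0.976 and 0.982 for control. The 24 T-cell markers were all detected, and their summed level was 3264 to 3337 FPKM in the cisplatin libraries and 2078 to 2203 FPKM in the control libraries. The 21 ID8 tumour-cell markers, among them keratins and Msln, summed to 268.5 to 276.6 FPKM with cisplatin and 1735 to 1812 FPKM in control. Of these, 4 (Krt7, Igfbp5, Tagln and Tpm2) were too low to be tested, and none was at 0 in every library. The 10 B-cell markers summed to 3607 to 3684 FPKM with cisplatin and 1676 to 1760 FPKM in control, and the 13 myeloid markers to 129.6 to 148.4 and 65.92 to 70.86 FPKM. Single genes made up much of these sums and of the ID8 sum. Cisplatin and control means were 3220 and 1433 FPKM for Ighm (B cell) and 89.65 and 30.75 FPKM for Lyz2 (myeloid). For Krt19 (ID8) they were 52.88 and 646.1 FPKM. Median log2 fold changes (cisplatin minus control) of the tested markers were 0.58 for T cells, -2.52 for ID8 cells, 0.60 for B cells and 1.44 for myeloid cells. The myeloid markers were not uniform: of 10 tested, 8 were higher, Cd14 was lower (-0.47) and Cd68 was unchanged (0.004). Of the 17 tested ID8 markers, 16 were lower and Thbs1 was unchanged (0.04). Transcripts known as markers of several cell types were thus measured together, although the Pan T-Cell Isolation Kit II, used on the spleen cells before the co-culture, is made to remove B and myeloid cells. Fewer cells of a type and less RNA per cell cannot be told apart in such bulk samples, and the part of these markers in the results that follow was not tested. The marker lists, including the T-cell list used for centring below, were chosen with earlier results of these data known. They are therefore not an independent yardstick.

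Groups were compared by limma on log2(FPKM + 0.1) for 15874 genes whose mean reached 0.5 FPKM, and all 10 p53 damage response genes passed this filter. On the FPKM as deposited, 5 of them rose with cisplatin-pretreated ID8 cells (Bbc3, Ccng1, Trp53, Mdm2 and Trp53inp1), of which Trp53, Ccng1, Mdm2 and Trp53inp1 turned negative when the T-cell markers were used to centre each library. Lower in the cisplatin libraries on the FPKM as deposited were 3 (Phlda3, Cdkn1a and Pmaip1), and Eda2r and Gdf15 did not pass the test there. The centring lowers every log2 fold change by the same 0.57, so these 3 stay below 0 by construction. The threshold was an adjusted p-value (Benjamini-Hochberg over all tested genes) under 0.05, which 56.5% of all tested genes passed, 27.5% as higher and 29.0% as lower. No gene of the group changed by 2-fold or more, which is the size that the study required for a call, while 16.9% of all tested genes passed both thresholds. The log2 fold changes ran from -0.70 to 0.62 with a median of 0.25, beside a median of 0.03 over all tested genes. The groups did not overlap for 8 of the 10 genes, as for 64.2% of all tested genes. Of these 8, 5 were higher on the FPKM as deposited (31.9% of all tested genes) and 3 were lower (32.3%).

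**Figure D1:**
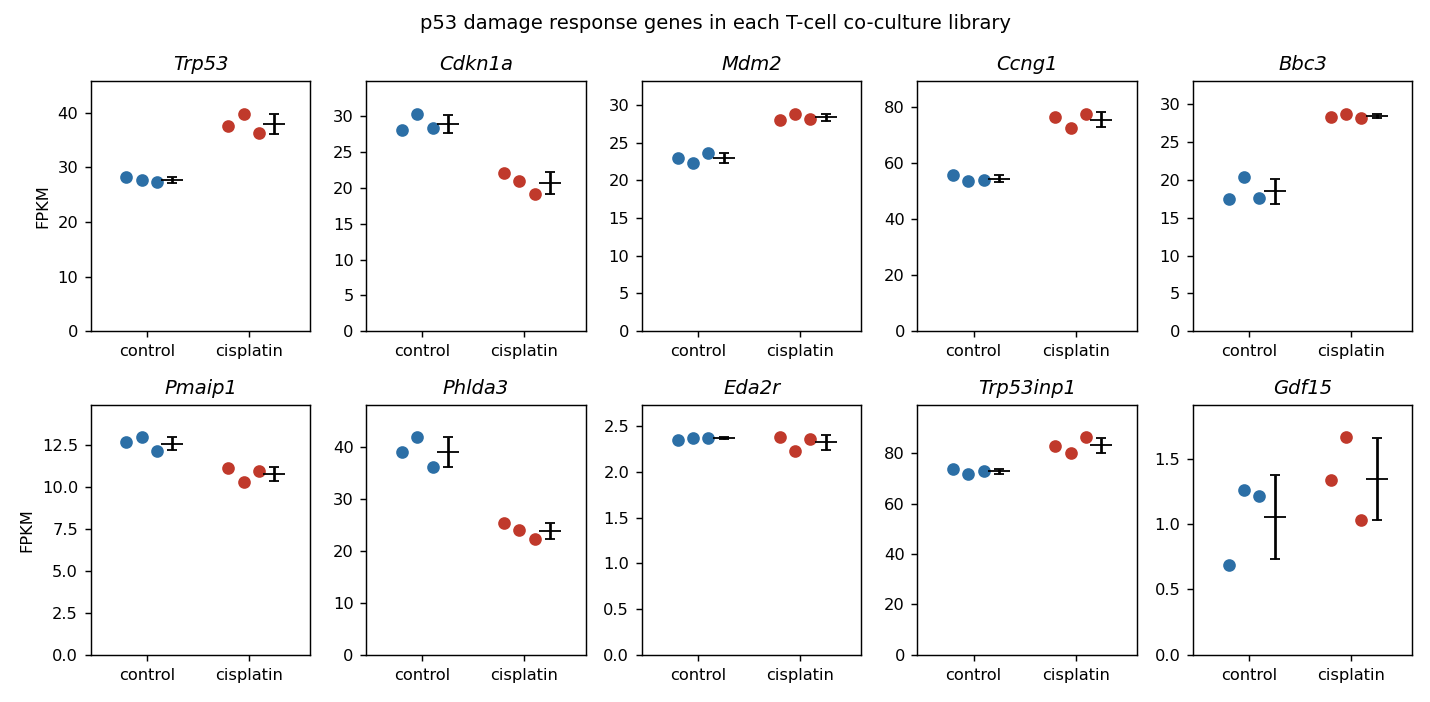
FPKM (linear axis from 0) of each p53 damage response gene in the 3 control (blue) and 3 cisplatin (red) libraries, with the group mean and SD beside the points. The groups do not overlap for 8 genes, 3 lower and 5 higher with cisplatin (of the 5, Trp53, Ccng1, Mdm2 and Trp53inp1 turned negative after centring on T-cell markers), and they overlap for Eda2r and Gdf15.

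Trp53 (ENSMUSG00000059552, chromosome 11 from 69580359 to 69591873 of GRCm38, + strand) encodes p53. Its level was 37.63, 39.81 and 36.32 FPKM in the cisplatin libraries and 28.23, 27.58 and 27.24 FPKM in the control libraries. Every cisplatin library lay above every control library. The log2 fold change was 0.45 (SE 0.04, limma adjusted p of 0.00012), and -0.12 after centring on the T-cell markers (limma adjusted p of 0.059). Between 3345 and 5337 reads per library stood behind these values.

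Mdm2 (ENSMUSG00000020184, chromosome 10 from 117688875 to 117710758) marks p53 for degradation and is itself switched on by it. It had 27.97, 28.82 and 28.17 FPKM with cisplatin and 22.95, 22.24 and 23.58 FPKM in control, again without overlap. Its log2 fold change was 0.30 (SE 0.04, limma adjusted p of 0.00037), which became -0.27 after the centring (limma adjusted p of 0.00047). Ccng1 (ENSMUSG00000020326, chromosome 11 from 40748552 to 40755311) encodes cyclin G1, which acts on Mdm2 through a phosphatase, and its promoter window held the paired site shown above. It had 76.37, 72.29 and 77.53 FPKM with cisplatin and 55.80, 53.37 and 54.03 FPKM in control. The cisplatin libraries were all higher on the FPKM as deposited, with a log2 fold change of 0.47 (SE 0.04, limma adjusted p of 5.8e-05) and of -0.10 after the centring (limma adjusted p of 0.093).

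Cdkn1a (ENSMUSG00000023067, chromosome 17 from 29090976 to 29100727) encodes p21, the inhibitor of cyclin-dependent kinases through which p53 arrests the cell cycle. Its level was 22.05, 20.89 and 19.10 FPKM in the cisplatin libraries and 28.11, 30.35 and 28.30 FPKM in the control libraries. All cisplatin libraries lay below all control libraries, the opposite side from Trp53 and Mdm2 on the same scale. Cdkn1a fell by 0.48 on the log2 scale (SE 0.06, limma adjusted p of 0.00059), and by 1.05 after the centring (limma adjusted p of 9.9e-06). A gene on the other strand, AC167363.2, overlaps Cdkn1a and had a mean of 0.66 FPKM over all libraries. Whether reads were counted by strand is not given in the sources used here. Of the 8 genes with a promoter window, only Cdkn1a and Ccng1 held a paired site with at most 1 departure in it. Sites outside the windows were not searched. Cdkn1a and Ccng1 moved in opposite directions on the FPKM as deposited, and both lay below 0 after the centring.

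The cell death genes of the group did not move together. Bbc3 (ENSMUSG00000002083, chromosome 7 from 16308393 to 16318205) encodes PUMA, a BH3-only protein that neutralises the survival proteins of the BCL2 family. It had 28.28, 28.75 and 28.24 FPKM with cisplatin and 17.50, 20.40 and 17.57 FPKM in control. Its log2 fold change of 0.62 (SE 0.06, limma adjusted p of 0.00021) was the highest of the 10 genes, and it was 0.05 after the centring (limma adjusted p of 0.50). Pmaip1 (ENSMUSG00000024521, chromosome 18 from 66458604 to 66465550 in the deposited table, slightly shorter than in GENCODE M21) encodes NOXA, another BH3-only protein. It had 11.08, 10.30 and 10.94 FPKM with cisplatin and 12.64, 12.93 and 12.12 FPKM in control. The groups did not overlap, and Pmaip1 fell by 0.22 on the log2 scale (SE 0.05, limma adjusted p of 0.0073). This change lost its call when libraries were scaled by the reads on genes (limma adjusted p of 0.052) or by quantiles (limma adjusted p of 0.095), and it was -0.79 after the centring (limma adjusted p of 2.0e-05).

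Phlda3 (ENSMUSG00000041801, chromosome 1 from 135766119 to 135769136) encodes a protein that keeps the survival kinase Akt from membranes. It had 25.35, 23.94 and 22.21 FPKM in the cisplatin libraries and 38.89, 41.78 and 36.10 FPKM in the control libraries. This was the deepest fall of the group, by 0.70 on the log2 scale (SE 0.07, limma adjusted p of 0.00017) and by 1.27 after the centring (limma adjusted p of 8.3e-06). The distance between Bbc3 and Phlda3, the genes at the ends of the order, was 1.33 in log2 fold change, which the centring cannot alter. The fall of Phlda3 and Cdkn1a was in the direction of the ID8 markers, whose median log2 fold change was -2.52 in the same libraries, and their part in these falls was not tested. Bbc3, Ccng1 and Trp53 rose in the direction of the T-cell (median 0.58), B-cell (median 0.60) and myeloid markers (median 1.44) on the FPKM as deposited, and after the centring Ccng1 and Trp53 lay below 0.

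Trp53inp1 (ENSMUSG00000028211, chromosome 4 from 11156431 to 11174379), a stress-induced nuclear partner of p53, was the most abundant gene of the group. It had 82.96, 80.05 and 86.26 FPKM with cisplatin and 73.61, 71.83 and 72.83 FPKM in control. Its rise was small but without overlap, with a log2 fold change of 0.19 (SE 0.03, limma adjusted p of 0.0034) and of -0.38 after the centring (limma adjusted p of 0.00014).

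Eda2r (ENSMUSG00000034457, chromosome X from 97333840 to 97377216) encodes a death-domain-free receptor of the TNF receptor family that binds ectodysplasin A2. It was low, with 2.376, 2.223 and 2.362 FPKM with cisplatin and 2.352, 2.372 and 2.373 FPKM in control. The groups overlapped, and the log2 fold change was -0.03 (95% interval -0.23 to 0.17, limma adjusted p of 0.80). After the centring it was -0.60 (limma adjusted p of 0.00078). Gdf15 (ENSMUSG00000038508, chromosome 8 from 70629393 to 70632456), a secreted stress cytokine of the TGF-β superfamily, was the lowest gene. It had 1.335, 1.662 and 1.033 FPKM with cisplatin and 0.6834, 1.261 and 1.214 FPKM in control. These values rested on 62 to 102 reads in the cisplatin libraries and 38 to 70 reads in the control libraries. The log2 fold change of 0.34 had a 95% interval from -0.33 to 1.02 (limma adjusted p of 0.34), which holds a fall of the size seen for Pmaip1 and a rise of the size seen for Bbc3. Without the first control library, the lowest of the 6, it was 0.09.

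The spread between replicates, as the coefficient of variation, was above that from counting for 8 of the 10 genes in the cisplatin libraries and 9 of the 10 in the control libraries, and above 2 times that for 6 and 4. For Trp53 the coefficient of variation between cisplatin libraries was 4.65%, beside 1.41% from the number of reads alone, and for Cdkn1a 7.19% beside 2.04%. Bbc3 varied by 1.01% with cisplatin, beside 2.25% from counting, and by 8.94% in control, beside 2.90%. Mdm2 with cisplatin (1.57% beside 1.46%) and Trp53 in control (1.82% beside 1.72%) were close to counting error. For Eda2r it was 3.64% beside 4.74%, so its spread was no wider than counting error. Gdf15 varied by 23.4% with cisplatin and 30.5% in control, beside 11.1% and 13.02% from counting.

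Per length of transcript, the order of the levels was Trp53inp1, Ccng1, Trp53, Bbc3, Mdm2, Phlda3, Cdkn1a, Pmaip1, Eda2r and Gdf15 in the cisplatin libraries. Bbc3 (28.4 ± 0.286 FPKM, SD, n = 3) and Mdm2 (28.3 ± 0.443 FPKM, SD, n = 3) were not separated by their ranges there, and all other neighbours were. In the control libraries Phlda3 (38.9 ± 2.84 FPKM, SD, n = 3) and Cdkn1a (28.9 ± 1.24 FPKM, SD, n = 3) followed Trp53inp1 and Ccng1, and Cdkn1a and Trp53 (27.7 ± 0.503 FPKM, SD, n = 3) overlapped. Trp53inp1 and Ccng1 headed the order in both groups, and Pmaip1, Eda2r and Gdf15 closed it.

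The ratio of each gene to Trp53 within a library hardly depends on the scaling between libraries. Relative to Trp53, 6 of the other 9 genes were lower in every cisplatin library than in every control library, none was higher in every cisplatin library, and 3 (Ccng1, Bbc3 and Gdf15) overlapped. The same ratio was lower without overlap for 60.5% of the other 15873 tested genes and higher without overlap for 7.81%, so the count of 6 in 9 is near that of genes in general. The log2 ratio of Cdkn1a to Trp53 was 0.06 ± 0.07 in the control libraries and -0.87 ± 0.09 in the cisplatin libraries (SD, n = 3 each). For Phlda3 the ratio went from 0.49 ± 0.099 to -0.67 ± 0.09 (SD, n = 3 each). The ratio of Mdm2 to Trp53 moved less, from -0.27 ± 0.06 to -0.42 ± 0.05 (SD, n = 3 each). The ratio of Ccng1 to Trp53 differed by 0.02 between the groups, within its spread. A two-sided exact permutation test gave p = 0.1 for each of the 6 ratios without overlap, the smallest that 3 libraries against 3 allow, and an adjustment over 9 ratios cannot make it smaller.

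**Figure D2:**
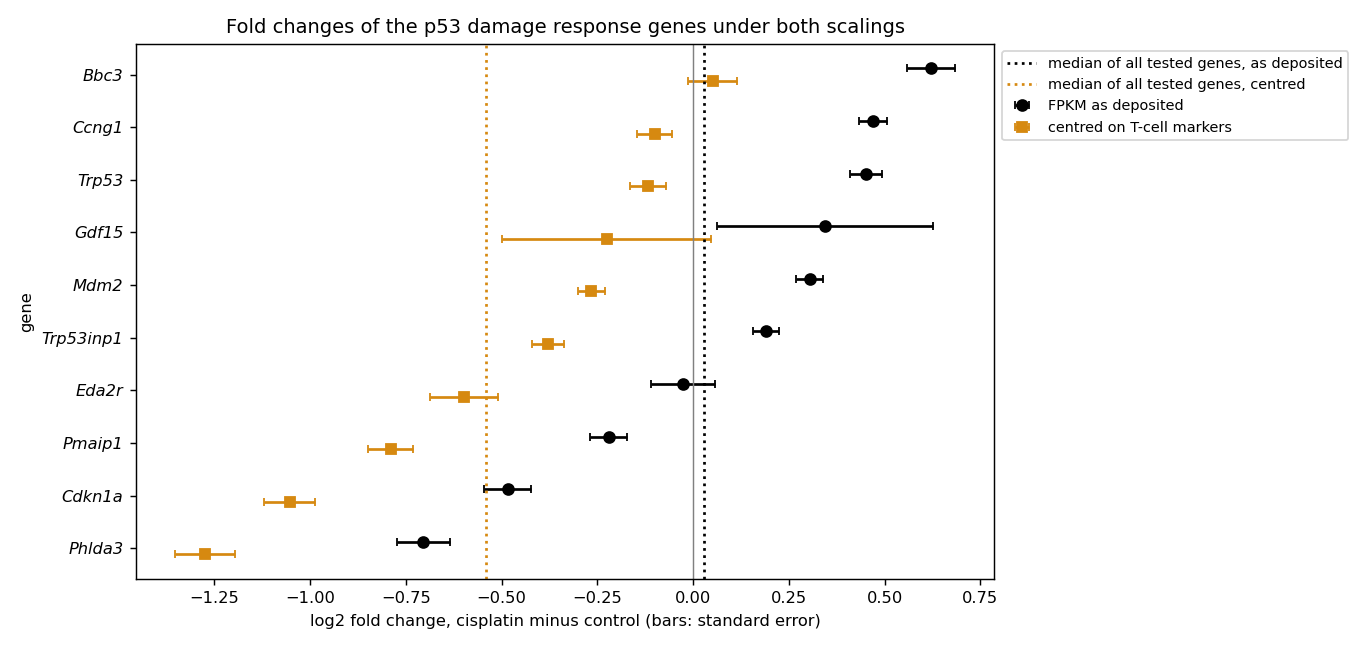
Log2 fold change (cisplatin minus control, bars are standard errors from limma) of each p53 damage response gene on the FPKM as deposited (black circles) and after centring each library on the T-cell markers (orange squares), with the median of all tested genes as dotted lines. Centring moves every gene and the median of all genes alike, from 0.03 to -0.54, so the order of the genes stays while Trp53, Ccng1, Mdm2, Trp53inp1 and Gdf15 cross 0.

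The scaling decided whether the higher genes were called. Centring moved the median of all tested genes from 0.03 to -0.54, since it takes the T-cell markers as unchanged. Relative to that median, Bbc3 stood at 0.59, Ccng1 at 0.44, Trp53 at 0.42, Mdm2 at 0.28, Trp53inp1 at 0.16, Pmaip1 at -0.25, Cdkn1a at -0.51 and Phlda3 at -0.73 under both scalings. These positions are equal by construction, since the centring shifts all genes alike. After the centring none of the 10 genes was higher and 6 were lower at an adjusted p-value under 0.05 by limma, where 4.84% of all tested genes were higher and 65.8% lower. Cdkn1a and Phlda3 were then also past 2-fold, as were 23.4% of all tested genes on the lower side.

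A wider list of 39 other p53 targets was compared in the same way, and 36 were tested. Of these, 13 were higher, 10 were lower and 13 did not pass an adjusted p-value of 0.05 by limma, with a median log2 fold change of 0.09. Thus 63.9% of the 36 passed, near the 56.5% of all tested genes (27.5% higher and 29.0% lower). After centring on the T-cell markers 4 were higher (Sfn, Aen, Pidd1 and Casp1) and 25 were lower, beside 4.84% and 65.8% of all tested genes. The ID8 markers fell in the same libraries (median log2 fold change -2.52), and their part in the falls was not tested. Past 2-fold on the FPKM as deposited were 1 higher target, beside 4.11% of all tested genes, and 6 lower targets, beside 12.8%.

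Of the 12 cell death targets, 7 were higher, 1 was lower and 4 did not pass, with a median log2 fold change of 0.32. Among all tested genes 27.5% were higher and 29.0% lower. After the centring 3 were higher and 7 were lower, beside 4.84% and 65.8% of all tested genes, with a median of -0.25 for the 12 targets. Pidd1, the scaffold of a caspase-2-activating complex, rose from 2.53 ± 0.069 to 5.48 ± 0.621 FPKM (SD, n = 3 each), or 1.08 on the log2 scale (limma adjusted p of 0.00011) and of 0.51 after the centring. Aen, an exonuclease that degrades DNA in dying cells, rose from 6.01 ± 0.414 to 11.96 ± 1.04 FPKM (SD, n = 3 each), or 0.98 on the log2 scale that was 0.41 after the centring. Bax, which opens the outer mitochondrial membrane, had a log2 fold change of 0.63 (limma adjusted p of 1.1e-05) that was 0.06 after the centring. The lower gene was Perp, a membrane protein of epithelial cell junctions, at a log2 fold change of -1.14.

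The other roles had members on both sides on the FPKM as deposited. Among all tested genes 27.5% rose and 29.0% fell at the same threshold, against 4.84% and 65.8% after the centring. Of 9 tested growth arrest targets, 3 rose and 3 fell on the FPKM as deposited, against 1 and 6 after the centring. Gadd45a (which overlaps E230016M11Rik), a stress sensor that binds cyclin-dependent kinases and PCNA, fell from 17.3 ± 0.610 to 3.35 ± 0.685 FPKM (SD, n = 3 each), or -2.35 on the log2 scale (limma adjusted p of 1.3e-05), and Plk2, a kinase induced by stress, had a log2 fold change of -1.35. Sfn, the 14-3-3σ protein, rose from 18.45 ± 1.596 to 36.8 ± 1.36 FPKM (SD, n = 3 each), with a log2 fold change of 0.99, and Gtse1, a cell-cycle protein that restrains p53, with 0.73. After the centring these were 0.42 and 0.16. Of 6 DNA repair targets, Pcna (log2 fold change 0.40) and Ddb2 (0.34) were higher, both below 0 after the centring, and Rrm2b (-0.44) and Polk (-0.41) were lower. After the centring none of the 6 was higher and 5 were lower. Ddb2, Rrm2b and Polk overlap other genes, and their values are uncertain without the strand setting. Of 9 tested metabolic and antioxidant targets, 4 fell and 1 rose on the FPKM as deposited, against 7 and 0 after the centring. The falls were led by the adenylate kinase Ak1 (log2 fold change -1.79) and the glutaminase Gls2 (-1.28), which overlaps Spryd4, and the rise was that of Sesn1, a stress-induced brake on mTORC1 (0.53), which was -0.04 after the centring. Sco2 was listed at 0 in every library, and it overlaps Ncaph2 and Tymp.

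**Figure D3:**
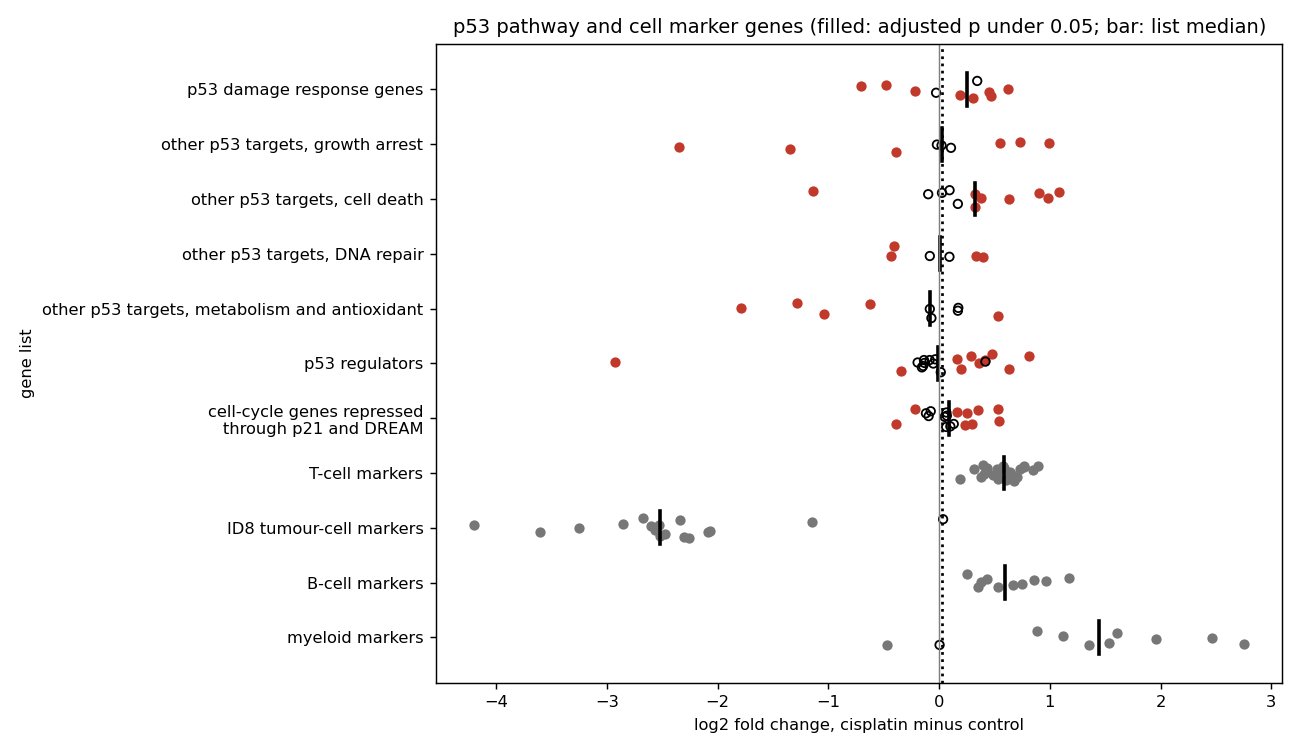
Log2 fold change (cisplatin minus control, FPKM as deposited) of the tested genes of each list, filled (red for p53 lists, grey for cell markers) where the adjusted p-value was under 0.05 by limma and open otherwise, with a bar at the list's median and a dotted line at the median of all tested genes. The p53 lists spread to both sides of 0, the T-cell and B-cell markers lie above it and 16 of the 17 tested ID8 markers below it; centring on the T-cell markers would move every point left by 0.57.

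Among 20 tested regulators of p53, 8 were higher, 2 were lower and 10 did not pass, with a median log2 fold change of -0.01. After the centring 1 (Atm) was higher and 16 were lower, with a median of -0.58. Among all tested genes 27.5% were higher and 29.0% lower on the FPKM as deposited, and 4.84% and 65.8% after the centring. Atm, the kinase that activates p53 at DNA breaks, rose from 12.7 ± 0.465 to 22.3 ± 0.294 FPKM (SD, n = 3 each), or 0.81 on the log2 scale (limma adjusted p of 6.0e-06) that was 0.25 after the centring. Wrap53, whose gene lies next to Trp53 on the other strand, had a log2 fold change of 0.63 (limma adjusted p of 0.00099) and of 0.06 after the centring. The related kinase Atr had -0.34 (limma adjusted p of 0.0053). Ppp1r13l, or iASPP, which inhibits p53 and is high in epithelial cells, fell from 13.03 ± 0.601 to 1.64 ± 0.224 FPKM (SD, n = 3 each), or -2.93 on the log2 scale (limma adjusted p of 1.4e-06). That value lay within the range of the ID8 markers, from -4.20 to 0.04. This wide range also holds the falls of Phlda3, Cdkn1a and Pmaip1, and the part of ID8 cells in the fall of Ppp1r13l was not tested.

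The fall of Cdkn1a was also set beside 18 cell-cycle genes that p53 represses through p21 and the DREAM complex. Of these, 7 were higher, 2 were lower and 9 did not pass an adjusted p-value of 0.05 by limma, with a median log2 fold change of 0.09 on the FPKM as deposited and -0.48 after the centring, where none was higher and 16 were lower. Among all tested genes 27.5% were higher and 29.0% lower on the FPKM as deposited, and 4.84% and 65.8% after the centring. Cdc20, an activator of the anaphase-promoting complex, stood at 0.54 on the log2 scale and overlaps Elovl1, and Mybl2, a transcription factor of dividing cells, had 0.53, and after the centring both lay just below 0. The lower genes were E2f1 (-0.39) and Aurka (-0.22). The count of 2 lower genes became 1 without the second cisplatin library and 1 without the first control library.

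Over the 6 libraries, the genes of at least 5 FPKM whose log2 levels were most like Trp53 were Srsf5 (Pearson r = 0.9996), Smg5, Snapc4, Txlna and Kcnab2, and those most like Cdkn1a were Ap5s1 (r = 0.998), Ptov1, Hgsnat, Etv4 and Dtnbp1. This is a description over 6 points in 2 groups, and 1521 and 1339 of 8421 genes had an r above 0.95 with Trp53 and Cdkn1a.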

How the data were processed

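RNA was sequenced from 6 libraries titled T cells, 3 per group, grouped by the sample titles. The authors deposited FPKM for 54532 genes, and the processing notes name fastp, HISAT2 2.0.5 and featureCounts 1.5.0-p3 with mm10, while the study's methods name LifeScope for alignment and counting. The coordinates equalled GENCODE M21 (GRCm38) for 53499 of 54409 shared genes. In each library FPKM times gene length was a multiple of a single step (100% of values above 0 within 0.1 of a whole), from which reads were rebuilt. They cover counting error only. The study tested genes with DESeq2 on counts, which are not used here. Strand settings are not given in the sources used here. The table held 0 columns of other samples.

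Tests used limma 3.58.1 (R 4.3.3, lmFit and eBayes with trend) on log2(FPKM + 0.1), which understates changes of low genes, with python 3.11.15, pandas 2.3.3, numpy 2.4.6 and matplotlib 3.10.9. On simulated reads with 200 genes set as changed by 2-fold or more, 94.2% of the 190 of them that were tested passed. So did 11 unchanged genes, among 15851 tested. In the data 56.5% of all tested genes passed. Whether changes as small as those of the 10 genes would pass at the same rate was not tested. No libraries held identical values, and replicates differed beyond counting error (chi-square over degrees of freedom, 5.36 to 6.44). The genes and lists were chosen with earlier results of these data known. All 10 genes are named, and from each list the 2 largest rises and falls among genes passing were preferred. Bax, Casp1 and Sco2 were also named from the lists, and the 5 genes most like Trp53 and Cdkn1a were taken by Pearson r. Alternatives were pseudocounts of 1 and 0.01, no filter or a mean of 5 FPKM, other scalings (median of ratios, quantiles, T-cell marker centring, TPM, reads on genes), no trend, voom on rebuilt reads (at least 10 in at least 3 libraries), leaving out each library, and the replicate number as a block.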

Additional observations from a re-analysis of the deposited data

How the results depend on the processing

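The depth was about equal in all libraries, and among the p53 damage response genes it limits Gdf15 most, which had at most 102 reads in a library. The 8 p53 damage response genes that passed kept their direction and their call under the other pseudocounts and filters, median of ratios, TPM, no trend, voom and each left-out library. The median of ratios left the deposited values almost unchanged (median of all tested genes 0.02806 beside 0.02804), so it is not a separate check. Eda2r and Gdf15 stayed without a call there, with Eda2r on both sides of 0. Eda2r and Gdf15 were not tested at a mean of 5 FPKM. After centring on the T-cell markers the log2 fold changes were -0.12 for Trp53, -0.27 for Mdm2, -0.10 for Ccng1, -0.38 for Trp53inp1, 0.052 for Bbc3 (no longer called) and -0.60 for Eda2r, which was then called. That scaling gave 0 higher and 6 lower genes of the group, 2 of them past 2-fold, 4 higher and 25 lower of the other p53 targets, 1 higher and 16 lower of the regulators, 0 higher and 16 lower of the cell-cycle genes, and 142 higher and 3710 lower of all genes past 2-fold. This follows from its construction, which shifts all genes alike. Pmaip1 lost its call with quantile normalization (-0.11) and with FPKM rescaled to the reads on genes (-0.14). That rescaling moved the median of all tested genes from 0.02804 to 0.109. Quantile normalization gave 1 lower regulator, 11 higher and 0 lower cell-cycle genes, the rescaled FPKM 1 lower cell-cycle gene, and voom 4 lower regulators. Of all tested genes, 653 were higher and 2034 lower past 2-fold. The higher count was 311 with a pseudocount of 1, and 242 higher and 903 lower genes were called at a mean of 5 FPKM, where 8422 genes were tested. The cause of these changes was otherwise not tested.

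Leaving out 1 library at a time gave log2 fold changes of 0.42 to 0.48 for Trp53, -0.53 to -0.43 for Cdkn1a, 0.58 to 0.69 for Bbc3, -0.76 to -0.65 for Phlda3 and 0.09 to 0.51 for Gdf15, and 1 to 2 lower cell-cycle genes. The replicate numbers are shared between groups, but same-numbered libraries did not deviate together (r of 0.02, -0.06 and -0.02 over tested genes), and the first cisplatin library correlated best with the second control library. With the replicate number as a block, 651 genes were higher and 2011 lower past 2-fold, and the p53 damage response genes kept 5 higher and 3 lower calls.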
